A study of Mus musculus with 2 samples.

Results

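The genes described here are 9 members of the vitamin A (retinoid) pathway: the uptake receptor Stra6, the enzymes Rdh10, Dhrs3 and Aldh1a2, the receptors Rara, Rarg, Rxra and Rxrb, and Tgm2, a transglutaminase gene that retinoic acid is known to induce. They were found by gene name among 36693 gene names on the array, and 16 probes read them. At 8 weeks after surgery, spleen monocytes of ICR mice, an outbred stock, had been sorted by their CD11b and Ly6C surface proteins. One group had a sham operation and the other a 5/6 nephrectomy (5/6Nx), a model of chronic kidney disease in which most kidney tissue is removed. Each group was read on 1 one-colour Agilent array, so there is no replicate error and no test, and the sources used here do not give how many mice stood behind each array, nor their age.

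Vitamin A acts on gene expression through retinoic acid, which cells make from retinol. Retinol enters cells through the receptor STRA6, is oxidised to retinal and then to retinoic acid, and retinoic acid binds the RAR receptors, which sit on DNA as pairs with RXR receptors. RXR also pairs with other nuclear receptors, such as the LXRs and PPARs of lipid metabolism, and retinoic acid is known as a signal in myeloid differentiation and in macrophage identity.

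The sham array had 63.0% and the 5/6Nx array 67.0% of its 59305 non-control spots well above background, the scanner software's call that a spot is clearly brighter than empty surface. The labelled cell type had its defining markers, since all 14 genes of a monocyte list, Itgam for CD11b and Ly6c2 among them, were well above background on both arrays. Marker lists of other cells differed between the arrays, and they are given beside the members below.

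The probes fix which part of each transcript was read, so their sequences are shown for the members where the file gives more than a plain position. Each is 60 bases long and printed 5′ to 3′, with the position of the whole probe on the mouse build mm9 as the files give it. The genes lie on the plus strand except Rarg and Tgm2. Of the 16 probes, 4 have coordinates that span more than their length, so that they cross at least 1 intron, and they are printed whole. A further 4 contain AATAAA, the usual polyadenylation signal, found in 9.77% of all 56605 probe sequences, and of these the 3 that the files list for RefSeq transcripts are shown over 30 bases with the signal in capitals.
Stra6, chr9:58000379-58000990, across an intron: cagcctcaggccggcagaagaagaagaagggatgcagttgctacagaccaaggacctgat
Rxrb, chr17:34173690-34173864, across an intron: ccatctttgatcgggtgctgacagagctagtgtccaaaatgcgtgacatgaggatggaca
Rxrb, chr17:34173894-34174155, across an intron: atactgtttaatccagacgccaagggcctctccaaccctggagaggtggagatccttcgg
Rarg, chr15:102072392-102073679, across an intron: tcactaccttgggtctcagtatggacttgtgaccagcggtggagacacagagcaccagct
Dhrs3, chr4:144517485-144517544: gcagaaacgcaaAATAAAgaggtggctttc
Rara, chr11:98836197-98836256: tactggagaaagAATAAAgttctatttatt
Rarg, chr15:102065371-102065430: ctatttttgcaaAATAAAgtgatggaaact
These 3 probes with the signal in capitals are also the brightest of their genes. No member probe shared a run of more than 16 of its 60 bases with a probe of another gene. Probes were compared only with probes, so a match of a probe to the transcript of a related gene, such as Rxra and Rxrb, was not tested.

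Differences are 5/6Nx minus sham in log2 units, after each array was scaled to its 75th percentile, and none has a replicate check. The errors beside intensities are those the scanner software gives for a spot, and they leave out sorting, labelling and the animals. For a difference between single bright spots this scanner error came to about 0.204 in log2 units.

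Among the members, Dhrs3 and Rxra were lower and Tgm2 higher in 5/6Nx monocytes by at least 2-fold. Aldh1a2 was well above background on that array only. Stra6, Rdh10, Rara and Rxrb were lower by less than 2-fold, and Rarg lay near 0. Thus, of the 8 members measured on both arrays, 1 passed 2-fold upward and 2 passed it downward. Over all 22182 genes measured in the same way 11.8% were at least 2-fold higher and 9.74% lower, together 21.5%. Of the 8 members 37.5% were, a share that rests on 3 genes. The members were also chosen with earlier results of these data known. The median difference of the 8 members was -0.56, beside -0.10 over all genes (-0.12 beside 0.33 with spike-in scaling, which uses control RNAs added in known amounts, and -0.33 beside 0.04 with cyclic loess). Below 0 lay 6 of the 8, as did 55.6% of all genes.

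**Figure D1:**
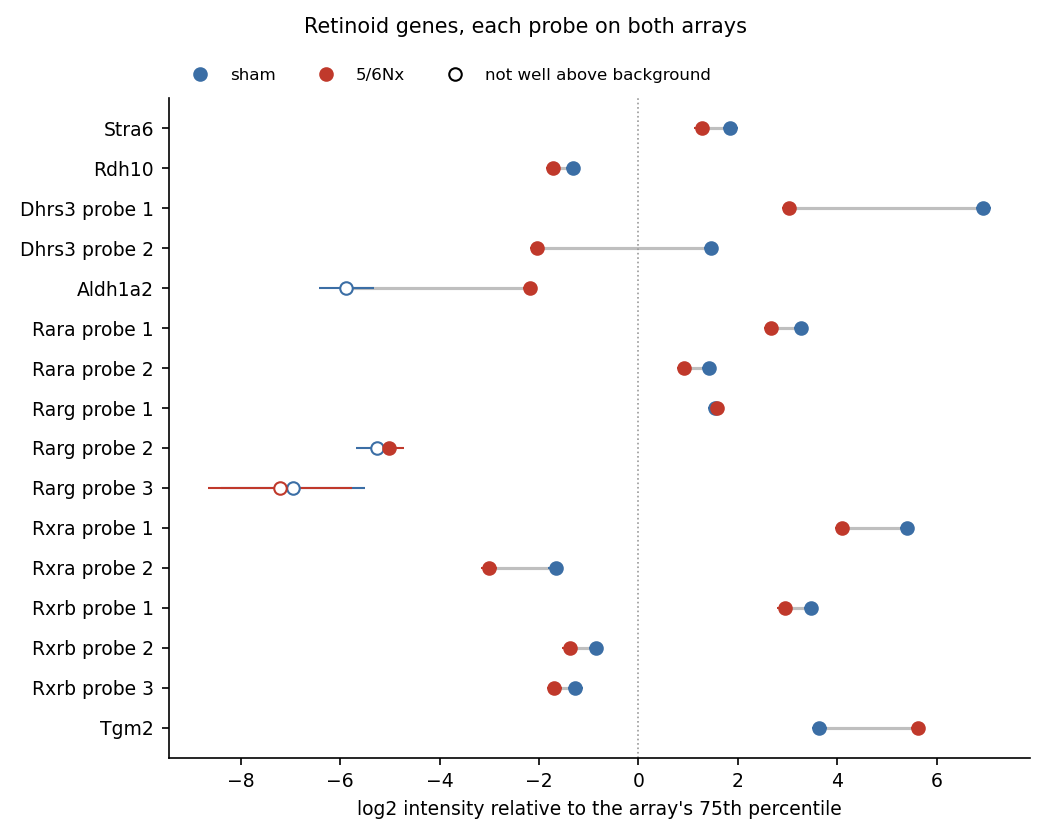
Each row is a probe of a retinoid gene, and the horizontal axis is its log2 intensity relative to the 75th percentile of its array (dotted line). Blue is the sham array and red the 5/6Nx array, open circles are not well above background, bars are the scanner error, and probes of a gene are numbered from the brightest in sham monocytes. Both Dhrs3 probes and both Rxra probes lie lower in 5/6Nx monocytes, and Tgm2 and Aldh1a2 lie higher.

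Uptake was read through Stra6, the membrane receptor that takes retinol from its plasma carrier. Its probe read an intensity of 1581 ± 158 (scanner error) in sham and 1313 ± 131 in 5/6Nx monocytes. After scaling this is a difference of -0.58, a signal 1.49-fold lower after nephrectomy, and 22.4% of all measured genes had a lower value. The gene was thus well above background in both cell samples, with a difference inside the 2-fold limit. With spike-in scaling, on 8 control RNAs in place of the percentile, it was -0.15.

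The first oxidation step is carried by Rdh10, a retinol dehydrogenase that makes retinal, and the reverse step by Dhrs3, a reductase that returns retinal to retinol. The Rdh10 probe (chr1:16122506-16122565) read 175.9 ± 17.9 in sham and 165.3 ± 16.9 in 5/6Nx monocytes. Its difference of -0.40 turned to 0.03 with spike-in scaling, so it has no settled direction.

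Dhrs3 showed the largest difference among the members measured on both arrays. Its probe at the 3′ end read 53824 ± 5382 in sham and 4447 ± 445 in 5/6Nx monocytes. The difference was -3.91, so that the 5/6Nx signal was 6.66% of the sham signal, and 0.334% of all measured genes lay lower. A second probe nearer the start of the transcript (chr4:144483279-144483338, position 239 of its transcript against position 1649 for the first) read 1204 ± 120 and 132.4 ± 13.7, a difference of -3.49. Dhrs3 was therefore lower in the 5/6Nx sample at both probes, by 15.0-fold and 11.3-fold. The first probe is listed in the files for 2 RefSeq transcripts of the gene and the second for 1. Over 10 settings of background, scale and spot handling, the main one among them, the first ranged from -4.06 to -3.47. The second ranged from -3.64 to -2.91. The settings of spot handling could hardly move these probes, which have a single spot each.

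Aldh1a2 encodes RALDH2, the enzyme that oxidises retinal to retinoic acid. Its probe (chr9:71143931-71143990) read 7.49 ± 2.84 in sham monocytes, not well above background, and 119.9 ± 12.3 in 5/6Nx monocytes, well above it. Against the floor of the sham array, the lowest intensity of any probe well above background there (12.8), the 5/6Nx signal was at least 7.57-fold higher. The 5/6Nx signal itself was dim, at less than the 75th percentile of its array (544.5). With normexp, another correction of the background, the difference of this probe was 1.21, just over 2-fold. The difference of the measured values was 3.69. Normexp was run with an offset of 50 added to every spot, which by itself makes differences of dim probes smaller. Its smaller values for dim probes, here and below, are therefore no separate check of their signal. Aldh1a2 was 1 of 2465 genes that passed the background limit in 5/6Nx monocytes alone, and 686 genes passed it in sham monocytes alone.

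The retinoic acid receptors Rara and Rarg were well above background on both arrays at their brightest probes. The brightest Rara probe read 4243 ± 424 in sham and 3447 ± 345 in 5/6Nx monocytes, a difference of -0.61, and its other probe (chr11:98835350-98835409) read 1174 ± 117 and 1023 ± 102, a difference of -0.51. The 2 Rara probes thus lay within 0.101 of each other and inside the 2-fold limit. With spike-in scaling they came to -0.18 and -0.08, less than the scanner error of 0.204. Rarg, at its 3′ probe, read 1271 ± 127 and 1620 ± 162, a difference of 0.04. It ranged from -0.11 with median scaling to 0.25 with cyclic loess and 0.47 with spike-in scaling, the last 2 moving by more than the scanner error. Its other 2 probes, listed in the files for Ensembl transcripts only, were dim. The one across an intron read 3.54 ± 3.56 in sham and 3.68 ± 3.71 in 5/6Nx monocytes, less than its own error on both. The other (chr15:102075510-102075569) read 11.4 ± 3.21 and 16.9 ± 3.50 and was well above background in 5/6Nx monocytes only.

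The RXR genes, the shared partners of RAR and of other nuclear receptors, both lay lower in 5/6Nx monocytes, by unequal amounts. The brightest Rxra probe (chr2:27618345-27618404) read 18515 ± 1852 in sham and 9312 ± 931 in 5/6Nx monocytes, a difference of -1.30. Its other probe (chr2:27615316-27615375) read 138.6 ± 14.2 and 68.2 ± 7.55, with a difference of -1.33. Under the main scale the ratio of the arrays was thus the same to within 0.0314 at both Rxra probes, at 40.6% and 39.7% of sham. Other settings set them further apart. The brightest and the other probe read -1.26 and -0.92 with normexp, the last short of 2-fold. They read -1.23 and -1.46 with quantile scaling, and -1.04 and -1.28 with cyclic loess. With spike-in scaling they came to -0.87 and -0.90, both short of 2-fold. Of all measured genes 5.70% lay lower than the brightest probe.

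Rxrb had 3 probes well above background on both arrays. The brightest (chr17:34175279-34175338) read 4876 ± 488 in sham and 4178 ± 418 in 5/6Nx monocytes, a difference of -0.53. The probes across introns read 243.3 ± 24.5 and 208.4 ± 21.1, and 182.3 ± 18.4 and 168.9 ± 17.1, with differences of -0.53 and -0.42. Under the main scale the 3 thus differed by at most 0.114 from each other. The files list one of them (chr17:34173690-34173864) for 2 of the RefSeq transcripts of the gene and the others for 4. With spike-in scaling the last lay at 0.01 and the brightest at -0.10. The gap between Rxra and Rxrb is a ratio within each array and does not move with a common scale, but with no replicates it was not tested.

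Tgm2, the transglutaminase that crosslinks proteins and is a known target of retinoic acid, ran the other way. Its only probe (chr2:157942275-157942334) read 5473 ± 547 in sham and 26899 ± 2690 in 5/6Nx monocytes. The difference was 1.99, or 3.97-fold higher after scaling, and 95.8% of measured genes lay lower. Over the 10 settings of background, scale and spot handling it ranged from 1.84 to 2.42. Tgm2 is also known to respond to other signals, among them cytokines.

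**Figure D2:**
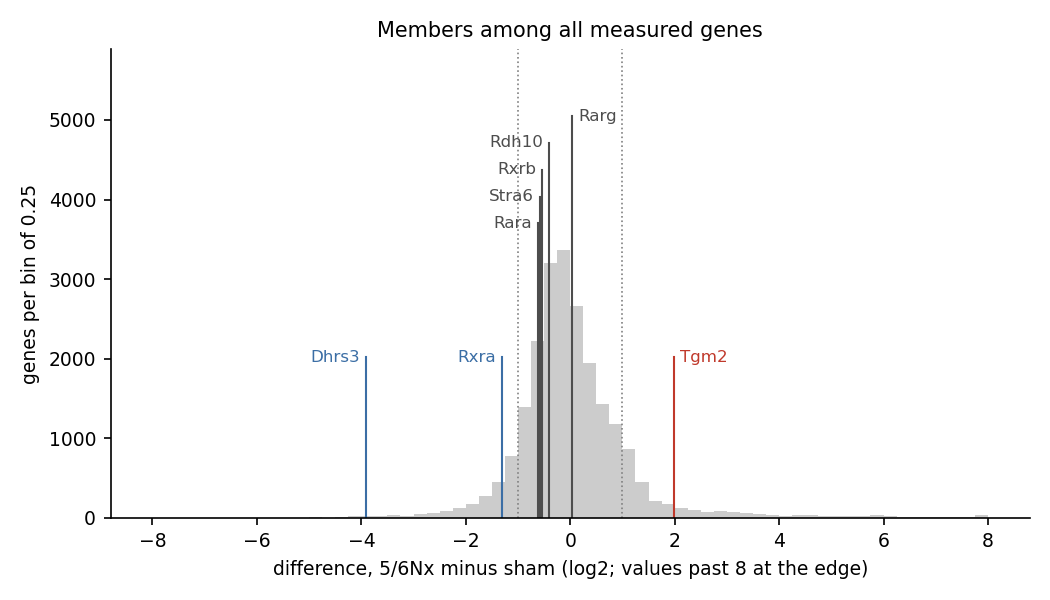
Bars count all 22182 measured genes by their difference, 5/6Nx minus sham in log2 units, in bins of 0.25, and labelled lines mark the 8 members measured on both arrays (line height has no meaning). Dotted lines are 2-fold, and Dhrs3 at -3.91, Rxra at -1.30 and Tgm2 at 1.99 lie outside them.

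Since the scale between the arrays is not fixed, each member was also set against the median gene, at -0.10 with the percentile, -0.25 with median scaling, 0.04 with cyclic loess and 0.33 with spike-in scaling. Relative to that median under the main scale, Dhrs3 lay at -3.81, Rxra at -1.20, Rara at -0.51, Stra6 at -0.48, Rxrb at -0.43, Rdh10 at -0.30, Rarg at 0.14 and Tgm2 at 2.09. Of the genes at least 2-fold apart 54.8% were higher in 5/6Nx monocytes, against 41.2% with median and 82.3% with spike-in scaling. The probes of a gene can disagree: among 7092 genes with several measured probes, 30.3% had probes of both signs and the median range was 0.422. In the 4 members with several measured probes, Dhrs3, Rara, Rxra and Rxrb, all probes had one sign under the main scale.

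**Figure D3:**
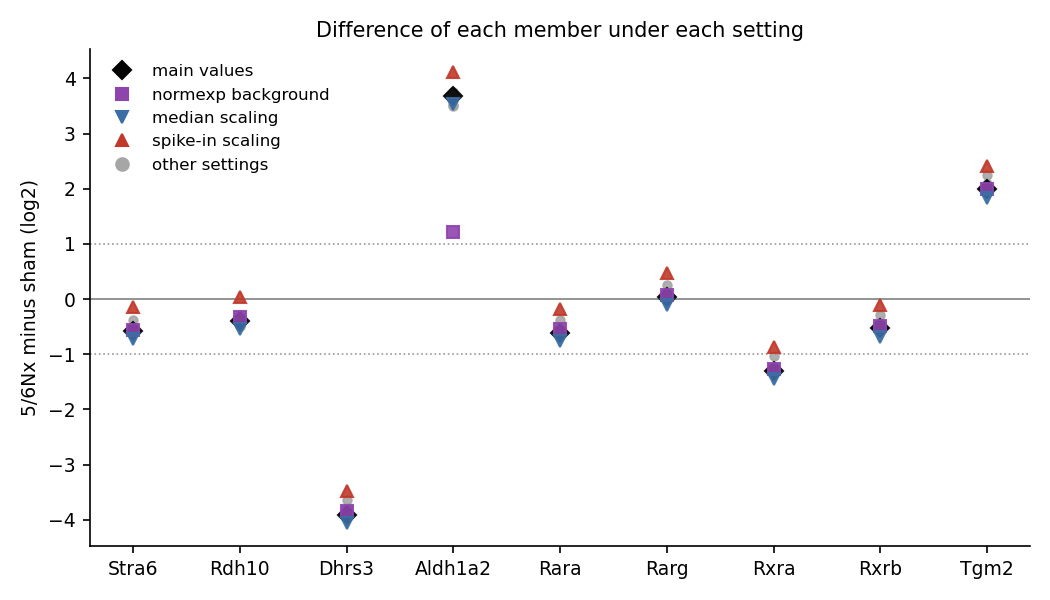
The difference of each member (5/6Nx minus sham, log2) is shown under 10 settings of background, scale and spot handling, at its brightest measured probe, with dotted lines at 2-fold. Aldh1a2 was not well above background in sham monocytes, and its values run from 1.21 with normexp to 4.12 with spike-in scaling. Dhrs3 and Tgm2 stay outside the dotted lines under all 10, and Rxra crosses its line with spike-in scaling at -0.87.

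Around the members, 6 lists of the wider pathway were read, some of whose genes are the members themselves. Without the members they hold 103 genes on the array, of which 72 were measured on both arrays, 19 at least 2-fold higher and 14 lower, with a median of 0.01. That is 45.8% apart, beside 21.5% of all genes, but the lists were written with results of these arrays known and hold genes that many signals regulate. List medians move with the scale: with spike-in scaling, where the median of all genes was 0.33, they were -0.25 for carriers, 0.17 for enzymes, 0.47 for receptors, 1.42 for partners of RXR, 0.20 for coregulators and 1.20 for responsive genes.

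Carriers and uptake genes had 7 of 13 measured, 1 higher and 2 lower, with a median of -0.68. Cd36, a scavenger receptor for lipids, differed by -4.99, and Scarb1, which takes up carotenoids and lipoprotein lipid, by -1.15 (-0.72 with spike-in scaling, -0.78 at its other probe). Lpl, a lipase that frees retinyl esters among other lipids, differed by 1.24, with probes from 0.62 to 1.25. Fabp5, a carrier that can hand retinoic acid to PPAR delta, differed by 0.04. Rbp4 and Ttr, the plasma carrier and its partner, and Lrat, which stores retinol as esters, were well above background on neither array.

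Among the enzymes 20 of 33 were measured, 2 higher and 5 lower, with a median of -0.26. Besides Dhrs3, the lower ones were the dehydrogenases Rdh12 at -1.22, Rdh13 at -1.37 and Dhrs7 at -1.27, and the retinol saturase Retsat at -1.29. With spike-in scaling these 4 came to -0.78, -0.93, -0.84 and -0.86, all short of 2-fold, and the Rdh13 probes ran from -1.37 to 0.09. Higher were Cyp2s1, a cytochrome P450, at 3.95, and the carotenoid oxygenase Bco2 at 1.60, both dim in sham monocytes at 28.4 and 53.6 and at 2.61 and 0.89 with normexp. Cyp1b1, another cytochrome P450, was well above background in 5/6Nx monocytes only and at least 3.56-fold higher there. Of the other retinal dehydrogenases Aldh1a1 differed by 0.52 and Aldh1a3 was well above background on neither array. Cyp26b1, which breaks down retinoic acid, read 155.2 and 327.2, a difference of 0.77, and its relatives Cyp26a1 and Cyp26c1 were well above background on neither array.

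The receptor list holds the 4 member receptors, the others of the RAR and RXR families and the ROR orphan receptors. Of 9 genes 7 were measured, 2 higher and 1 lower, with a median of 0.04. Rarb, a receptor whose own gene retinoic acid induces, was dim at 25.04 and 64.4 and differed by 1.05. With normexp, whose offset makes differences of dim probes smaller, this value was 0.26. The other Rarb probe lay at 0.24. Rxrg was well above background on neither array. Rora differed by 1.27 (0.78 at its other probe) and Rorb by 0.74.

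The partners of RXR had 11 of 13 measured, with 4 higher, 1 lower and a median of 0.99 (0.51 with normexp). Nr1h3, the LXR alpha gene, read 622.6 in sham and 8012 in 5/6Nx monocytes, a difference of 3.38, and its probes ran from 3.38 to 3.41. Nr1h2, the LXR beta gene, differed by -0.06 (0.38 with spike-in scaling). The immediate early receptors Nr4a1 and Nr4a2 differed by 2.07 and 1.36. Pparg lay at 1.03 (0.63 with normexp), Ppara at 0.99 and Ppard at -0.47. Of the thyroid hormone receptors Thra differed by -1.40 (-0.97 with spike-in scaling), and Thrb, dim on both arrays, lay just under 2-fold and at 0.13 with normexp. Vdr, the vitamin D receptor, differed by 0.23 and the xenobiotic receptor Nr1i3 by 0.58. Of the bile acid and pregnane receptors, Nr1h4 was well above background in the 5/6Nx sample alone, at least 1.90-fold higher, and Nr1i2 in neither.

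Coregulators had 15 of 16 measured, 1 higher and 2 lower, with a median of -0.23. The corepressor Ski differed by -1.47 and the acetyltransferase Kat2b by 1.13 (0.98 with normexp). Ncor1, another corepressor, lay at -0.03, with probes from -0.49 to 0.63.

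Genes known to respond to retinoic acid went both ways, with 25 of 35 measured, 11 higher and 6 lower and a median of 0.77 (0.26 with normexp). Higher besides Tgm2 and Rarb were Cd38, an ectoenzyme that consumes NAD, at 6.92, the adhesion molecule Icam1 at 4.11, the early factor Egr1 at 3.63, Tnip3, an inhibitor of NF-kappaB signalling, at 3.45, and the integrin subunit Itga4 at 2.54. Zbtb16 lay at 1.88 (0.66 at its other probe), Hoxb2 at 1.43, Gata6, a factor that retinoic acid induces in peritoneal macrophages, at 1.34, and Meis2 at 1.14. With normexp Hoxb2, Gata6 and Meis2 came to 0.76, 0.88 and 0.70, short of 2-fold. Asb2, a ubiquitin ligase subunit, was at least 26.6-fold higher in 5/6Nx monocytes. Lower besides Dhrs3 were, among others, Rai14 at -3.02, the repressor Hic1 at -1.23, Stra13, whose probe RefSeq names Cenpx, at -1.14, and Hoxb4 at -1.01. With spike-in scaling the last 3 stayed short of 2-fold, at -0.79, -0.71 and -0.57. The gut homing genes that retinoic acid induces in lymphocytes, Ccr9 and Itgb7, lay at 0.85 and -0.48. Dhrs3 and Tgm2, both known to be induced by retinoic acid, thus differed in opposite directions between the arrays.

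**Figure D4:**
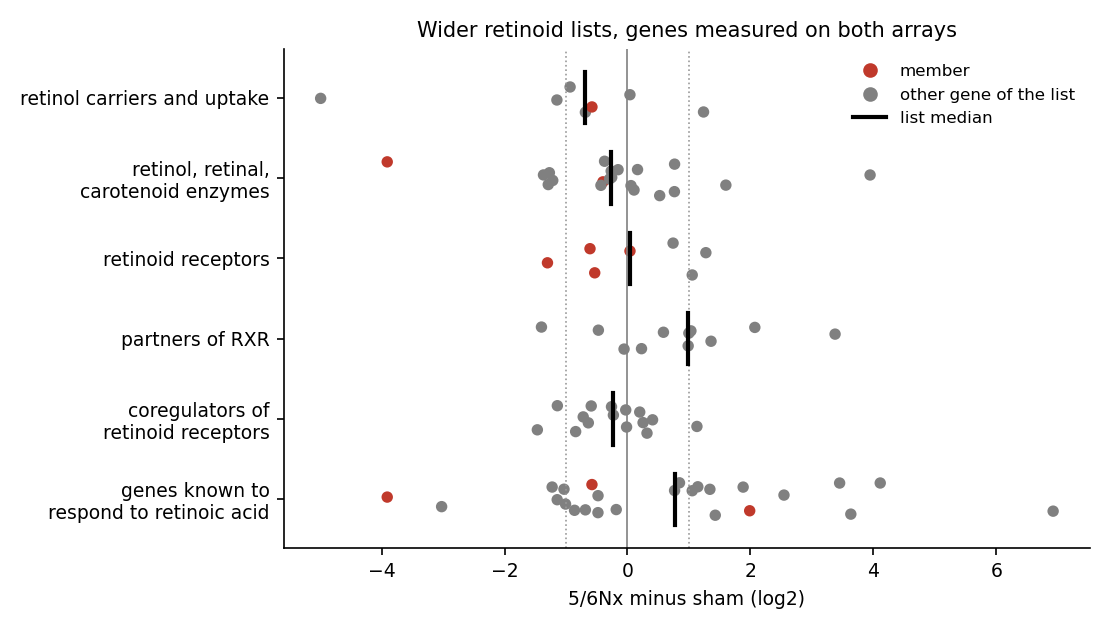
Each point is a gene of a wider retinoid list measured on both arrays, with its difference (5/6Nx minus sham, log2) on the horizontal axis, members in red, and a black bar at the list median. Dotted lines are 2-fold, and vertical scatter within a list has no meaning. Medians run from -0.68 for carriers and uptake to 0.99 for partners of RXR.

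Markers of other cell types differed between the arrays as well, and in bulk samples a different share of a cell type and a different level of RNA per cell cannot be told apart. As sums of the brightest probe of each gene, in multiples of the 75th percentile of the array, T cell markers read 8.10 for sham and 89.0 for 5/6Nx, with 11 of the 13 measured ones past 2-fold upward, a median of 5.13, and Thy1 at 6.47 and Cd3g at 6.31. NK cell markers read 0.828 and 56.5 with a median of 3.28, Il2rb at 7.66 and Tbx21 at 3.35, and 8 of 12, Ncr1 and Eomes among them, were well above background in 5/6Nx monocytes only. B cell markers read 3.47 and 6.38 with a median of 0.86, Cd79b at 1.92 and Bank1 at 1.38 (0.56 with normexp). The other 5 of the 7 measured lay within 2-fold, Pax5 at 0.03 among them. A further 4 were well above background in 5/6Nx monocytes only. Of these Cd79a was dim at 19.94 and at least 1.26-fold higher, and Vpreb3 was at least 15.5-fold higher.

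Cells that are known to make or store retinoids were read in the same way. Conventional dendritic cell markers, which mark a known source of Aldh1a2, had 4 of 9 measured genes higher and 2 lower and read 77.0 and 50.2. Their median was 0.72, Itgae lay at 4.43 and Batf3 at 4.28, with Zbtb46 and Clec9a in 5/6Nx monocytes only and Xcr1 on neither. The other way lay Clec10a at -4.12, with intensities of 22415 for sham and 1601 for 5/6Nx where the whole list summed to 33804 and 27330, and Cd24a at -1.16 (-0.73 with spike-in scaling), and Cd209a was well above background in the sham sample alone. Stromal markers had 1 of 7 higher and 1 lower and read 64.7 and 27.1. Their median was 0.45, Pdpn lay at -3.71 and Dcn at 1.33 (0.62 with normexp), with Col1a1 in 5/6Nx monocytes only and Pdgfra, Des and Lrat on neither. In intensity the stromal list summed to 28404 for sham and 14763 for 5/6Nx. Most of this was Pdpn, at 17112 and 1619, and Acta2, at 10961 and 11637. Endothelial markers, which mark cells rich in Tgm2, had 3 of 7 higher and 2 lower and read 6.24 and 9.66. Their median was 0.67, Kdr lay at 4.45 and Esam at -4.11, with Cdh5 and Tie1 in sham monocytes only and Tek, Emcn and Lyve1 on neither. Mesothelial markers read 0.452 and 0.717 with a median of 0.63, Krt18 at 1.06 (0.40 with normexp) and Krt8 at 0.63, and with Msln and Upk3b on neither array.

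Platelet markers, with 1 of 7 measured genes higher and 3 lower, read 412.1 and 27.2 with a median of -0.60, Pf4 at -4.31 and Treml1 at -3.81. Red pulp macrophage markers read 191.6 and 215.2, with 3 of 11 higher and 6 lower, a median of -1.69, Spic at 5.53 and Trf at -4.08. Neutrophil markers read 275 and 318.4, with 3 of 7 higher and 1 lower, a median of 0.51, Lcn2 at 7.30 and Ly6g at 4.53. The lower one was Mmp8 at -3.97, and Ltf, Ngp and Retnlg were well above background on neither array. Most of the neutrophil sum was Csf3r, with intensities of 106720 for sham and 157350 for 5/6Nx where the list summed to 120800 and 173350. The monocyte list itself read 1496 and 1643, with 7 of 14 higher and 2 lower, a median of 0.67 and S100a4 at -4.45. Erythroid markers read 1.47 and 3.96 with a median of -0.44, Hba-a1 at 2.70 and Epor at -0.80, and with Alas2 on neither array. The part of any of these cell types in the differences of the members was not tested.

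RefSeq promoter windows of 300 bases about a start site, most of them upstream of it, on GRCm38.p6 were at hand for 7 of the 9 members, in 18 windows. They were searched on both strands for direct repeats of the element AGGTCA, or of its variants written GGGTCA, or else written AGTTCA, or else written GGTTCA, with 1, 2 or 5 bases between them, the layouts that RAR and RXR pairs are known to bind. None of the 18 held one, and 0.588% of all 32851 windows did. This says only that these letters are not in these windows.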

How the data were processed

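Each deposited scanner file holds linear spot intensity, background-subtracted and detrended within each array but not scaled between arrays, per the file headers. The file headers give Agilent Feature Extraction 10.7.1.1, and the submitters' processing notes 9.5.1.1. The authors' value table also holds linear intensity values (52145 probes, medians 47.5 for sham and 48.2 for 5/6Nx), and the sources used here do not give its scaling. It correlated with the scanner values at r = 0.99964 and 0.99979 across probes in log2 units and served as an alternative.

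Control spots and spots with the deposited outlier flags (41 and 47 per array) were left out, and the deposited well-above-background flags were used as given. No spot was saturated. The main value was log2 of the processed intensity minus the 75th percentile of the array (439.2 for sham, 544.5 for 5/6Nx), averaged over spots of a probe. A probe was well above background when the flag was set on at least 50% of its spots, and the brightest probe measured on both arrays stood for its gene. Names are the GeneName entries of the files, and 14 of the 16 member probes matched RefSeq by accession. Among 285 repeated probes the median SD between spots was 0.0389 on the sham and 0.0387 on the 5/6Nx array.

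With 1 array per group no p-value was computed. The steps were tested on simulated data. The 12 alternatives were normexp (offset 50), quantile and cyclic loess scaling (limma 3.58.1), median, spike-in and detected-probe percentile scaling, the authors' table, a looser and no filter on dim probes, the mean over a gene's probes, outlier spots kept, and mean intensity of spots. The text names all 9 members, and from the wider lists each gene at least 2-fold apart or with a bound of at least 2-fold, beside receptors and partners by value. Some genes that this rule would name are counted in their lists but not reported here. Of the marker lists it names the 2 measured genes with the largest difference. A few further list genes (carriers, Aldh1a and Cyp26 relatives, Ncor1, Ccr9, Itgb7, Clec10a, Cd24a, Mmp8, Csf3r, Acta2, Pax5, and markers well above background on 1 array or neither) were chosen after their values were seen. The members, lists and alternatives were chosen with earlier results of these data known.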

Additional observations from a re-analysis of the deposited data

How the results depend on the processing

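Under 12 alternatives the 8 members measured on both arrays gave 96 values, and Aldh1a2 is not among them. Of these values 80 stayed within the scanner error of the main value and 16 moved further. None of those at least 2-fold apart changed sign. Each member probe had a single spot, so the changes of spot handling and of the filter could hardly move these values. The same holds for the mean over probes in members with 1 measured probe. Stability under those settings was thus fixed in advance. Members at least 2-fold lower numbered 1 in place of 2 with spike-in scaling, which left Rxra short of 2-fold. Members at least 2-fold higher numbered 2 in place of 1 when probes needed only to be positive and significant, and likewise without a filter, because Aldh1a2 then counted as measured. Over all genes 2617 were at least 2-fold higher, against 1435 with normexp, 4803 with spike-in scaling, 4042 with that looser filter and 5282 without a filter. At least 2-fold lower were 2160, against 1031 with spike-in scaling and 3765 without a filter. In the wider lists 20 genes were higher, or 13 with normexp, and 16 lower, or 4 with spike-in scaling. Against the sham probe's own value, which was not well above background, the ratio of Aldh1a2 was 12.9, which is no bound, beside the bound of 7.57-fold against the floor. No paired analysis was possible because each group has 1 array. The probes of Aldh1a2 and Rarb were dim, which limits their differences. With normexp these were 1.21 and 0.26, but its offset of 50 by itself makes differences of dim probes smaller.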
